A study of Mus musculus with 8 samples.

Results

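The 9 genes described here encode enzymes of the methionine cycle (Mat2a, Mat2b, Ahcy, Mtr), of the transsulfuration route that leads out of it (Cbs, Cth) and of glutathione synthesis (Gclc, Gclm, Gss). They were chosen by function, through their mouse Entrez gene IDs, and are 9 of the 24232 genes on the array. All 9 were well above background on 8 of 8 arrays, and all 9 were among the 15637 genes tested.

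In the methionine cycle, methionine is joined to ATP to give S-adenosylmethionine, the methyl donor of the cell, and the S-adenosylhomocysteine left after methyl transfer is split to homocysteine. Homocysteine is either methylated back to methionine or condensed with serine by cystathionine beta-synthase, which commits its sulfur to cysteine. Cysteine supply limits the synthesis of glutathione, the main thiol antioxidant of the cell, and in the ovary glutathione of follicular cells and oocyte is known for its part in protecting the oocyte.

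The cells were primary follicular cells, mostly granulosa cells, from preantral to small antral follicles of Swiss female mice (8 weeks of age). Each replicate pooled 5 animals, and culture lasted 9 days in total. Every culture received 200 ng of a DsRed plasmid together with 12 pmol of siRNA for 24 h, in phenol-red-free medium with charcoal-treated serum. The siRNA was a non-targeting pool (control siRNA) or a pool against Foxl2 (FOXL2 siRNA), and 10 h of ethanol vehicle or of 17β-estradiol (E2) at 100 nM followed. This gave 4 groups of 2 independent cultures, each on its own one-colour array, and all 8 arrays lay on 1 slide.

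Values are log2 scaled signals, that is, spot intensities divided by the 75th percentile of their own array and multiplied by 1 constant for all arrays, so that a difference of 1 is a 2-fold difference. Signals of different genes come from different probes and were not compared with each other. The differences between groups were tested with limma, adjusted over all 15637 genes, and a gene was called at an adjusted p under 0.05. The same test was repeated with the replicate number as a block, because arrays of the same number deviated together.

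The signal of the targeted gene differed between its probes and did not settle the siRNA labels. Foxl2, the forkhead factor of granulosa cells, was 0.17 higher with vehicle (limma adjusted p = 0.623) and 0.19 higher with E2 (adjusted p = 0.608) under the FOXL2 siRNA label than under the control label, as a log2 difference of the mean over its probes. The log2 difference at its dimmer probe ran with the labels, at -1.15 with vehicle (95% interval -1.77 to -0.53, adjusted p = 0.0646) and -0.79 in the E2 arrays (interval -1.41 to -0.17, adjusted p = 0.237). The brighter probe gave 0.17 (interval -0.17 to 0.51) and 0.19 (interval -0.14 to 0.53). By qPCR, the study reports that its siRNA pool against Foxl2 lowered Foxl2 mRNA. Fst, the follistatin gene, is named by the study among genes that need FOXL2. Fst fell by 2.00 with vehicle (limma adjusted p = 0.00207) and by 2.04 with E2 (adjusted p = 0.00242) under the FOXL2 siRNA label. Groups are therefore named by their labels throughout.

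The E2 direction within control siRNA also needs its labels stated. The study describes E2 in these arrays mainly as an activator, with Cbs among the genes activated and Sox9 and Sox8 among those repressed. Apart from the arrays, it reports E2 activation of selected genes by qPCR and lower SOX9 protein with E2 by western blot. By the labels as given, the opposite direction was found with control siRNA. Sox9 was 0.79 and Sox8 0.70 higher with E2 there, while under the FOXL2 siRNA label the log2 differences were -0.43 and -0.30. None of these 4 values was called in limma without the block. With the block, Sox9 was called higher for E2 with control siRNA, where 1.16% of all genes were called. Sox9 and Sox8 were then also called for the difference of the E2 effects, where 2.12% were called. Applied here to all genes tested, a rule of a 2-fold change larger than 2 times the summed SDs selected 9 higher and 62 lower genes for E2 with control siRNA, and 25 higher and 9 lower under the FOXL2 siRNA label. Whether the vehicle and E2 labels of the control siRNA arrays are the right way round was not tested, and every comparison that uses these 4 arrays rests on them. The results below follow the labels, and for Cbs the values with these labels exchanged are given beside them.

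Among marker genes, 8 of 11 granulosa markers were above background on 8 arrays, and the defining markers Fshr and Amh on 0 of them. Cyp19a1, the aromatase gene, was above background on 6 arrays, on 2 of each control siRNA group and on 1 of each FOXL2 siRNA group. For the oocyte, 7 of 8 markers were above background on 0 arrays, while Gdf9 was above it on 8. Of the macrophage markers, Cd68, Csf1r and Cd14 were above background on 8 arrays, Adgre1 on 7, and Ptprc and Lyz2 on 0. Of the endothelial markers, Kdr and Pecam1 were above it on 8 arrays and Cdh5, Tek and Emcn on 0, and of the theca and interstitial markers Cyp17a1, Star, Nr2f2 and Cyp11a1 on 8 and Lhcgr on 0. The 5 Sertoli markers together ranged from 11.21 to 11.67 in the control siRNA arrays, as log2 of their summed signal. They ranged from 12.14 to 12.65 in the arrays labelled FOXL2 siRNA, a sum carried by Dhh. Of the 5, 4 (Dhh, Gata1, Sox8 and Sox9) were called higher with both treatments. Of all genes, 6.56% were called there with vehicle and 4.39% with E2. Gata1 was above background on 0 arrays of either control siRNA group and on 2 arrays of each FOXL2 siRNA group. It reached the median signal of 10 needed for testing only through the latter. Dmrt1 went the other way, with means of 6.98 and 6.35 with vehicle and 6.57 and 6.23 with E2, control siRNA first. It was called lower with vehicle, only under the replicate block. The theca and interstitial markers ranged from 14.38 to 14.57 and from 15.26 to 15.35 on the same scale, a sum carried by Cyp11a1. Without the block, Cyp11a1 was the 1 of 4 tested theca markers called. With the block, Star was also called higher with vehicle and Cyp17a1 with E2, where 18.7% and 14.9% of all genes were called. Granulosa markers went both ways between siRNA labels. Of 9 tested, Wt1 was called higher, by 1.14 with vehicle and 0.91 with E2, and Fst lower with both treatments. With the block, 2 were called higher and 3 lower with vehicle, and 1 higher and 2 lower with E2. The 4 Sertoli markers called and Cyp11a1 were higher in both siRNA comparisons below. The part of all these markers in those results was not tested. In a mixed culture, fewer cells of a type and less RNA per cell cannot be told apart.

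Cbs, which encodes the first enzyme of transsulfuration, was the member whose signal differed most between groups. Cbs rests on 1 probe with 1 spot, so no other probe checks its values. Its log2 signal was 9.32 and 9.41 with control siRNA and vehicle, and 7.04 and 7.49 when E2 was added. Under the FOXL2 siRNA label it was 6.73 and 6.70 with vehicle, and 8.16 and 7.89 with E2. No group overlapped another, and the order from the highest was control siRNA with vehicle, FOXL2 siRNA with E2, control siRNA with E2, and FOXL2 siRNA with vehicle. Both E2 arrays thus lay below vehicle under the control label and above it under the FOXL2 label.

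With control siRNA, Cbs fell by 2.11 on the log2 scale with E2 (SE 0.17, 95% interval -2.51 to -1.71, limma adjusted p = 0.0141), which is 4.31-fold lower. Cbs was 1 of 9 members called in this comparison, in which 0.0192% of all genes were called. The call did not hold in every leave-out. Adjusted p was 0.120 without control siRNA with vehicle replicate 1, 0.0964 without its replicate 2, 0.100 without control siRNA with E2 replicate 1, and 0.0536 and 0.0525 without replicates 1 and 2 of FOXL2 siRNA with vehicle. The log2 change stayed between -2.33 and -1.88 in these repeats. With the replicate block, in which 1.16% of genes were called, adjusted p was 3.8e-05.

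In the arrays labelled FOXL2 siRNA, E2 went with a Cbs signal 2.48-fold higher, a log2 difference of 1.31 (95% interval 0.91 to 1.71). That comparison missed the threshold in limma over all genes (adjusted p = 0.153), and 0 of 9 members (1 at an unadjusted p under 0.05) and 0.0128% of all genes were called. It passed with the replicate block (interval 0.98 to 1.64, adjusted p = 0.00153), where 0.614% of genes were called. The difference between the E2 effects under the siRNA labels was itself tested and was 3.41 for Cbs (SE 0.24, 95% interval 2.85 to 3.98, limma adjusted p = 0.00368). Of all genes, 0.243% were called for this difference, or 2.12% with the block, and Cbs was called among the members with and without it. By p, Cbs was number 4 of the 15637 genes in that test. With the vehicle and E2 labels of the control siRNA arrays exchanged, the E2 effect on Cbs with control siRNA was 2.11, the same direction as the 1.31 under the FOXL2 siRNA label. The difference of the effects was then -0.80 (95% interval -1.36 to -0.23, limma adjusted p = 1.00), so its call rests on these labels.

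Between the siRNA labels, Cbs fell by 2.65 with vehicle (95% interval -3.05 to -2.25, limma adjusted p = 0.000662), a 6.29-fold lower signal. Of all genes, 6.56% were called in this comparison without the block and 18.7% with it. With E2 the difference was turned around, at 0.76 (95% interval 0.36 to 1.16) or 1.7-fold higher. It narrowly missed the threshold without the block (adjusted p = 0.0534) and passed it with the block (adjusted p = 0.00444), where the shares of all genes called were 4.39% and 14.9%. The comparisons share arrays: control siRNA with vehicle serves both the first E2 comparison and the vehicle comparison of siRNAs. With the control treatment labels exchanged, the differences between siRNA labels were -0.55 with vehicle (95% interval -0.95 to -0.15, adjusted p = 0.136) and -1.34 with E2 (interval -1.75 to -0.94, adjusted p = 0.00746). Another background correction (normexp) kept every direction of Cbs, with log2 changes of -1.70 and 0.90 for E2 and -2.03 and 0.57 for the siRNA labels.

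**Figure D1:**
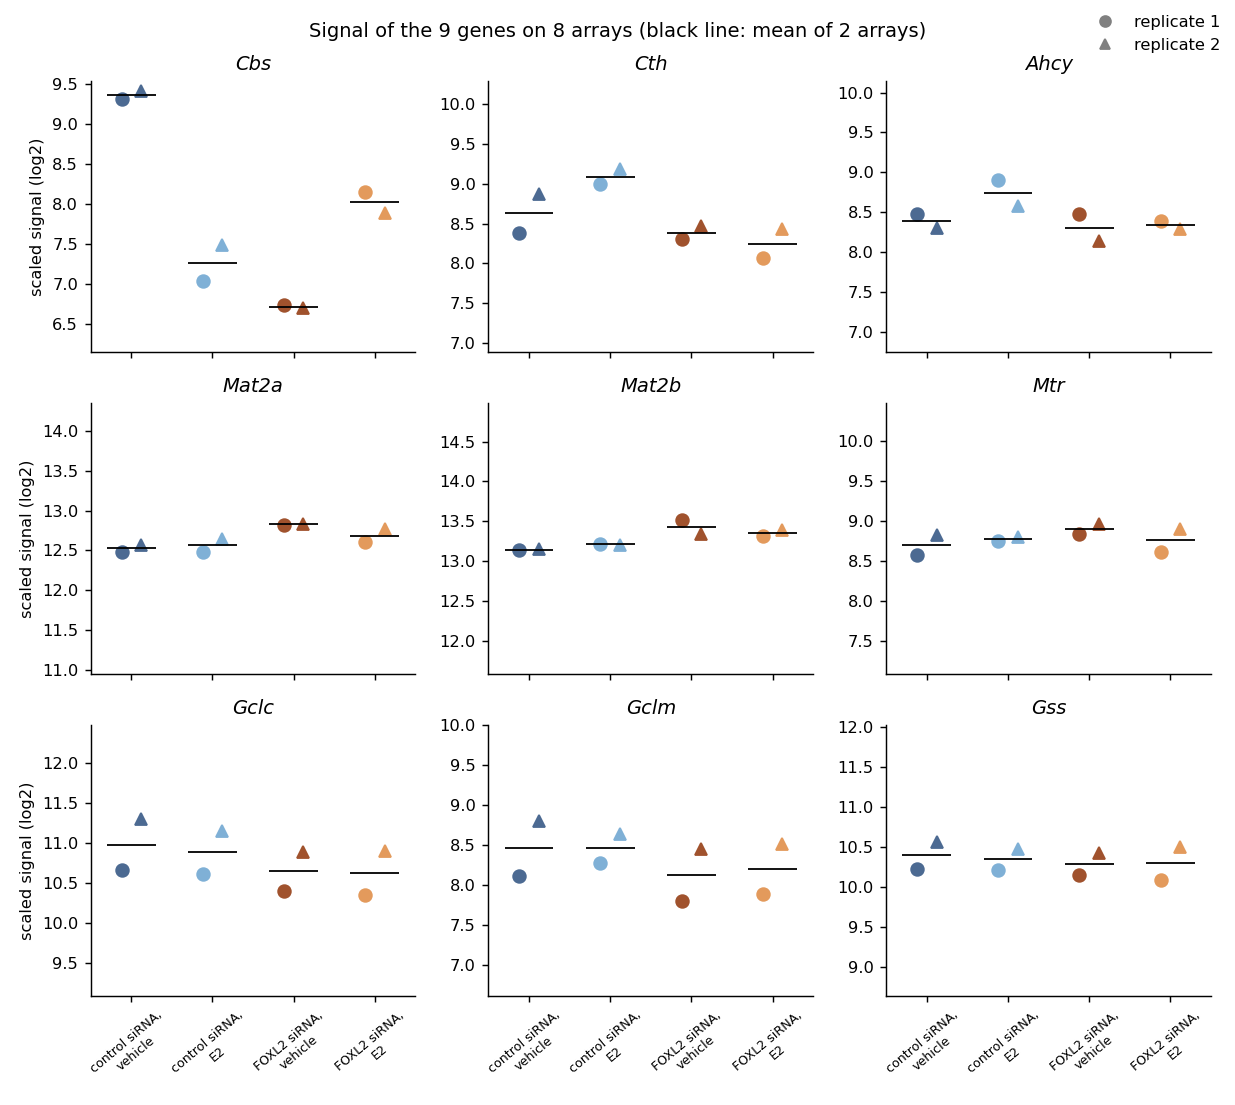
Log2 scaled signal (vertical axis) of each of the 9 members on the 8 arrays, by group (horizontal axis), with a point per array and a bar at each group mean; each panel spans the same range, centred on its gene. Cbs lies at 9.32 and 9.41 with control siRNA and vehicle and at 6.70 and 6.73 with FOXL2 siRNA and vehicle, while the points of Gclc, Gclm and Gss spread more within groups than between them.

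The stretch of DNA just before the start of Cbs is shown because Cbs is the member on which the results turn. In the RefSeq promoter windows (assembly GRCm38.p6), 7 of the 9 members had an entry, all but Cth and Gclc. The 250 bases before the start of Cbs lie at chr17:31637206-31637455 on the minus strand and are written 5′ to 3′ along the gene:
Cbs: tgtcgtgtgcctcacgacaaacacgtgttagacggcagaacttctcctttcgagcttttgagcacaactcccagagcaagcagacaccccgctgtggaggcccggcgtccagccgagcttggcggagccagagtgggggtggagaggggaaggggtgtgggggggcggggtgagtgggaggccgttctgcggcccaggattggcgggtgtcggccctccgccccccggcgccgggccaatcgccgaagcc
This stretch was searched on both strands for the estrogen response element GGTCANNNTGACC, for the forkhead words GTAAACA and GTAAATA and also ATAAACA and ATAAATA, for the antioxidant response element core TGACNNNGC and for the amino acid response element core TGATGNAAT. None of these motifs occurred in it. Of 32851 windows of the same length, 0.0639% held the first, 13.6% a forkhead word, 10.2% the antioxidant core and 0.816% the amino acid core. No letters matching the first or the last motif occurred in any of the 7 members' windows.

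The genes whose pattern over the 8 arrays was most like that of Cbs were taken among 13090 named genes above background on at least 6 arrays. Genes without a symbol and those with Gm, LOC or Rik symbols were left out. Fbxo32, a ubiquitin ligase subunit known from muscle wasting, had a Pearson r of 0.995 with Cbs. Plau, the urokinase plasminogen activator, followed at 0.988, and Lyrm4, Pik3cd and Lrp8 had 0.976, 0.974 and 0.973. Arrays of one group share their treatment, so these correlations over 8 arrays describe the pattern and were not tested. They were chosen on the arrays that the differences come from, so their values are a description, with no test. The log2 difference between siRNA labels with vehicle was -2.77 for Plau, -1.82 for Pik3cd, -1.15 for Fbxo32, -0.96 for Lrp8 and -0.37 for Lyrm4. The difference of the E2 effects was 3.24, 2.26, 1.38, 1.22 and 0.43 in the same order.

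**Figure D2:**
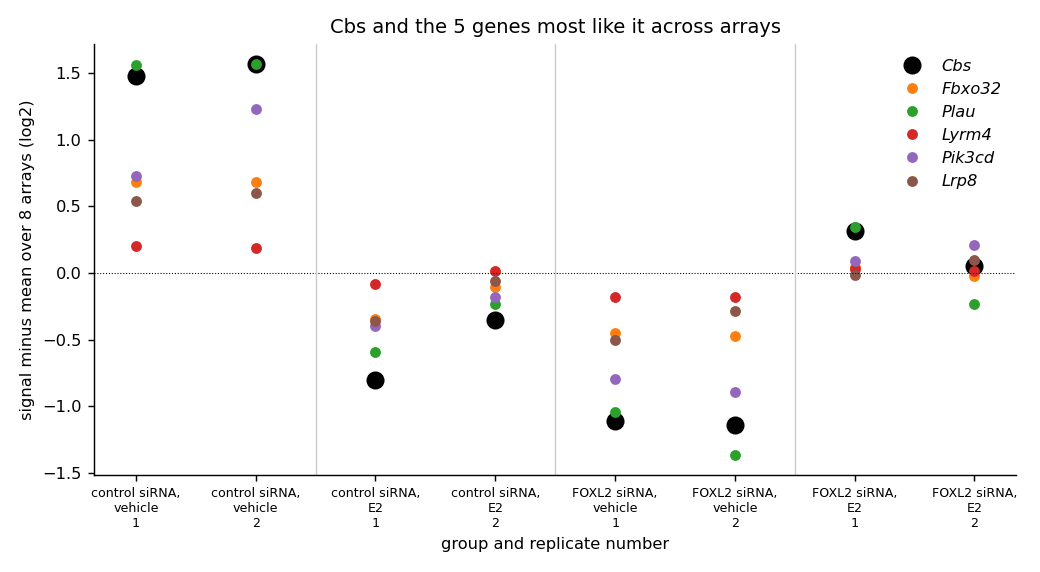
Log2 scaled signal on the 8 arrays, centred on each gene's mean (vertical axis), by group (horizontal axis). Shown are Cbs and the 5 genes with the highest Pearson r to it among the named genes searched. All 6 genes are highest with control siRNA and vehicle; Plau is nearest to Cbs in the size of its differences.

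Cth, which encodes the enzyme that releases cysteine from cystathionine, did not follow Cbs, and their correlation over the 8 arrays was -0.04. Its log2 signal was 8.39 and 8.87 with control siRNA and vehicle, and 9.00 and 9.18 with E2. Under the FOXL2 siRNA label it was 8.31 and 8.46 with vehicle, and 8.06 and 8.43 with E2. Only control siRNA with E2 stood apart, above all other arrays. Between the siRNA labels with E2, Cth was 1.80-fold lower, a log2 difference of -0.85 (SE 0.19, 95% interval -1.29 to -0.40), and missed the threshold by little in limma (adjusted p = 0.0530). It was called with the replicate block (interval -1.09 to -0.60, adjusted p = 0.000236), and without the block when either array of control siRNA with vehicle was left out (lowest adjusted p = 0.034). Its 2 probes gave -0.84 and -0.85. The difference with vehicle was -0.24 (95% interval -0.68 to 0.20). The E2 difference with control siRNA was 0.46 (95% interval 0.02 to 0.91, adjusted p = 1.00), and adjusted p was 0.0835 with the block.

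Ahcy encodes S-adenosylhomocysteine hydrolase, which splits S-adenosylhomocysteine to homocysteine and adenosine. Its log2 signal was 8.47 and 8.30 with control siRNA and vehicle, 8.90 and 8.58 under control siRNA plus E2, 8.47 and 8.14 with FOXL2 siRNA and vehicle, and 8.39 and 8.29 with FOXL2 siRNA and E2. As with Cth, both arrays of control siRNA with E2 lay above all others. Between the siRNA labels with E2 the log2 difference was -0.40 (95% interval -0.77 to -0.02, limma adjusted p = 0.271), with an adjusted p of 0.0242 under the replicate block. Its 3 probes differed, since the brightest gave -0.33 and the others -0.48 and -0.51. For E2 under the FOXL2 siRNA label the probes had opposite signs, with -0.14 for the brightest and 0.18 and 0.44 for the others.

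Mat2a and Mat2b encode the catalytic and the regulatory subunit of the S-adenosylmethionine synthetase of non-liver cells. Mat2a was 12.48 and 12.57 with control siRNA and vehicle, 12.48 and 12.64 under control siRNA plus E2, 12.82 and 12.83 with FOXL2 siRNA and vehicle, and 12.60 and 12.76 with FOXL2 siRNA and E2. Mat2b was 13.14 and 13.15, 13.22 and 13.21, 13.51 and 13.34, and 13.31 and 13.40 in the same order of groups. With vehicle, both arrays labelled FOXL2 siRNA were above both control siRNA arrays for each subunit. The log2 differences there were 0.30 for Mat2a (95% interval 0.08 to 0.52, limma adjusted p = 0.126) and 0.28 for Mat2b (interval 0.08 to 0.48, adjusted p = 0.111). Under the replicate block these were called, at adjusted p = 0.0216 and 0.0364. With E2 the differences were 0.12 (interval -0.10 to 0.34) and 0.14 (interval -0.06 to 0.34). The dimmer probe of Mat2a gave 0.08 with vehicle where the brighter gave 0.31. Over the 8 arrays the subunits correlated at 0.84, and Cbs with Mat2b at -0.67.

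A forkhead word was found before the start of Mat2a, and the same kind of word at the same distance before Gss, which encodes glutathione synthetase. Both lay 31 to 25 bases before the start, on the gene's strand. They are shown in capitals with 25 bases on each side, at chr6:72439557-72439612 for Mat2a and chr2:155592811-155592866 for Gss, both on the minus strand of GRCm38.p6:
Mat2a: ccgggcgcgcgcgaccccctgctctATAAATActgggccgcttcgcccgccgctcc
Gss: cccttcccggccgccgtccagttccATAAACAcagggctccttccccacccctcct
The Mat2a word overlaps the letters of a TATA box, and a match of letters is no measure of binding.

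Mtr, which encodes the cobalamin-dependent methionine synthase, was measured by 2 probes. Its log2 signal ranged from 8.57 to 8.96 over the 8 arrays. With vehicle, both arrays labelled FOXL2 siRNA (8.83 and 8.96) were above both control siRNA arrays (8.57 and 8.82), by a mean log2 difference of 0.20 (95% interval -0.12 to 0.52, limma adjusted p = 0.504). The other differences were -0.02 between siRNA labels with E2 (interval -0.34 to 0.30), 0.08 for E2 with control siRNA (interval -0.24 to 0.40) and -0.14 for E2 with FOXL2 siRNA (interval -0.46 to 0.18).

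For Gclc, Gclm and Gss, the genes of glutathione synthesis, the offset between replicate numbers was larger than any difference between the groups compared. Such an offset was not particular to them, since deviations of same-numbered arrays correlated at 0.327 to 0.445 over all genes tested. How many of all genes had an offset of 1 sign in 4 of 4 groups was not counted. Gclc, the catalytic subunit of glutamate-cysteine ligase, was 10.66 and 11.30 with control siRNA and vehicle, 10.62 and 11.15 under control siRNA plus E2, 10.40 and 10.89 with FOXL2 siRNA and vehicle, and 10.35 and 10.90 with FOXL2 siRNA and E2. Gclm, its modifier subunit, was 8.11 and 8.80, 8.27 and 8.64, 7.80 and 8.44, and 7.88 and 8.51 in the same order. The groups overlapped in every comparison for both subunits, because replicate 2 was above replicate 1 in 4 of 4 groups. That offset was 0.49 to 0.63 for Gclc, 0.37 to 0.69 for Gclm and 0.27 to 0.42 for Gss as log2 differences. Replicate 2 was above replicate 1 in 4 of 4 groups also for Cth (0.16 to 0.48), Mtr (0.05 to 0.28) and Mat2a (0.002 to 0.16). For Ahcy it ran the other way, from -0.34 to -0.10. The replicate number coincides with the row of the array on the slide, so culture and slide row cannot be told apart.

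**Figure D3:**
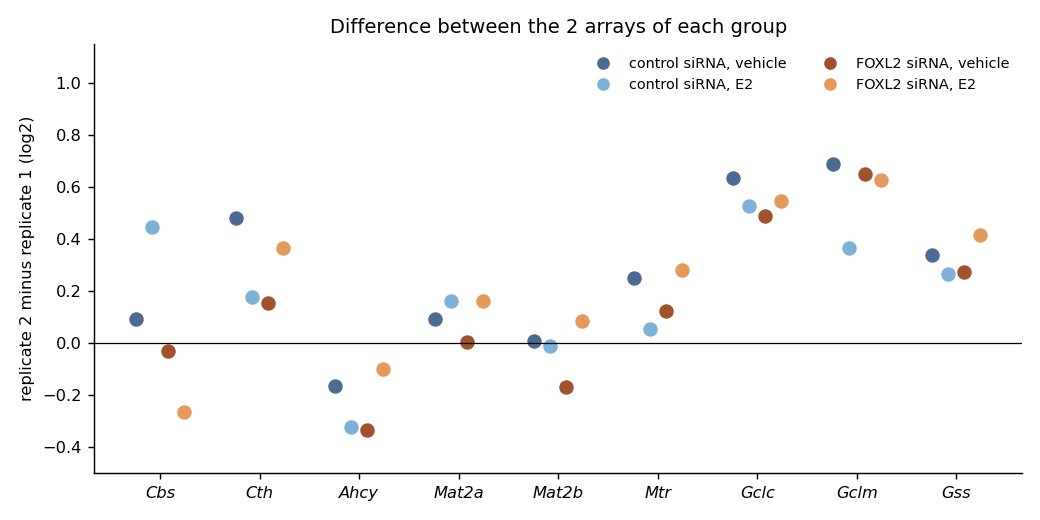
Replicate 2 minus replicate 1 in log2 scaled signal (vertical axis) for each of the 9 members (horizontal axis), with a point for each of the 4 groups and a line at 0. Gclc, Gclm, Gss, Cth, Mtr and Mat2a lie above 0 in 4 of 4 groups, with Gclc and Gclm reaching the highest values, and Ahcy lies below 0 in 4 of 4, while Cbs and Mat2b lie on both sides.

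Within a replicate number, Gclc was lower under the FOXL2 siRNA label in 4 of 4 matched differences, by log2 differences of -0.26 and -0.40 with vehicle and -0.27 and -0.25 with E2. Gclm was likewise lower in 4 of 4, at -0.32 and -0.36 with vehicle and -0.39 and -0.13 with E2. The number of all genes with 4 such differences of the same sign was not counted. Matching was by replicate number only, as no source says that arrays of the same number came from the same pool. Without the block these differences could not be called. The mean for Gclc with vehicle was -0.33 (SE 0.29, 95% interval -1.01 to 0.35, limma adjusted p = 0.619) and that for Gclm -0.34 (interval -1.08 to 0.40, adjusted p = 0.646). With the block, the SE for Gclc fell to 0.08 and the difference with vehicle was called (interval -0.51 to -0.15, adjusted p = 0.0141). Gclc with E2 had an adjusted p of 0.0554, Gclm with vehicle 0.0556 and Gclm with E2 0.154 under the block. E2 went with log2 differences of -0.10 and -0.02 for Gclc and of -0.0037 and 0.07 for Gclm, with control and FOXL2 siRNA. The 95% intervals of these 4 values reached from -0.77 to 0.82 without the block.

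Gss was 10.23 and 10.56 with control siRNA and vehicle, 10.21 and 10.48 under control siRNA plus E2, 10.15 and 10.43 with FOXL2 siRNA and vehicle, and 10.09 and 10.50 with FOXL2 siRNA and E2. Its groups overlapped in all comparisons, and its log2 differences between groups ran from -0.10 to 0.0036. The interval that reached farthest from 0 was -0.54 to 0.33, for the siRNA labels with vehicle. Over the 8 arrays Gclc correlated at 0.97 with Gclm and at 0.95 with Gss, values that include the shared offset between replicates. Before the start of Gclm, the antioxidant response element core occurred on the opposite strand, 134 to 126 bases upstream, at a motif that 10.2% of windows hold. It is shown in capitals, as read along the gene, with 25 bases on each side, from chr3:122245398-122245456 on the plus strand of GRCm38.p6:
Gclm: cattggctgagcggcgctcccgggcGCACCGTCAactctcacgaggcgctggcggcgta

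Read over all 9 members, the calls without the block were Cbs alone, in 3 of the 5 comparisons. Between siRNA labels with E2, 0 members were called and 3 had an unadjusted p under 0.05 in limma. With the block they were Cbs for each E2 effect and for the difference between them, Cbs, Mat2a, Mat2b and Gclc between siRNA labels with vehicle, and Cbs, Cth and Ahcy between siRNA labels with E2. Those 4 and 3 of 9 members stand beside the 18.7% and 14.9% of all genes given above. The arrays of the compared groups did not overlap for 4 members for E2 with control siRNA (27.2% of all genes), 2 for E2 with FOXL2 siRNA (27.6%), 4 for the siRNA labels with vehicle (46.0%) and 4 for the siRNA labels with E2 (48.0%). In both siRNA comparisons the members' share was close to that of all genes. The median log2 change of the 9 members was 0.03, -0.02, -0.10 and -0.05 in these comparisons, beside -0.01, -0.03, -0.01 and 0.00 over all genes. The span from the lowest to the highest array was 2.71 for Cbs, 1.12 for Cth, 1.01 for Gclm and 0.95 for Gclc, and from 0.35 to 0.77 for the remaining members.

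**Figure D4:**
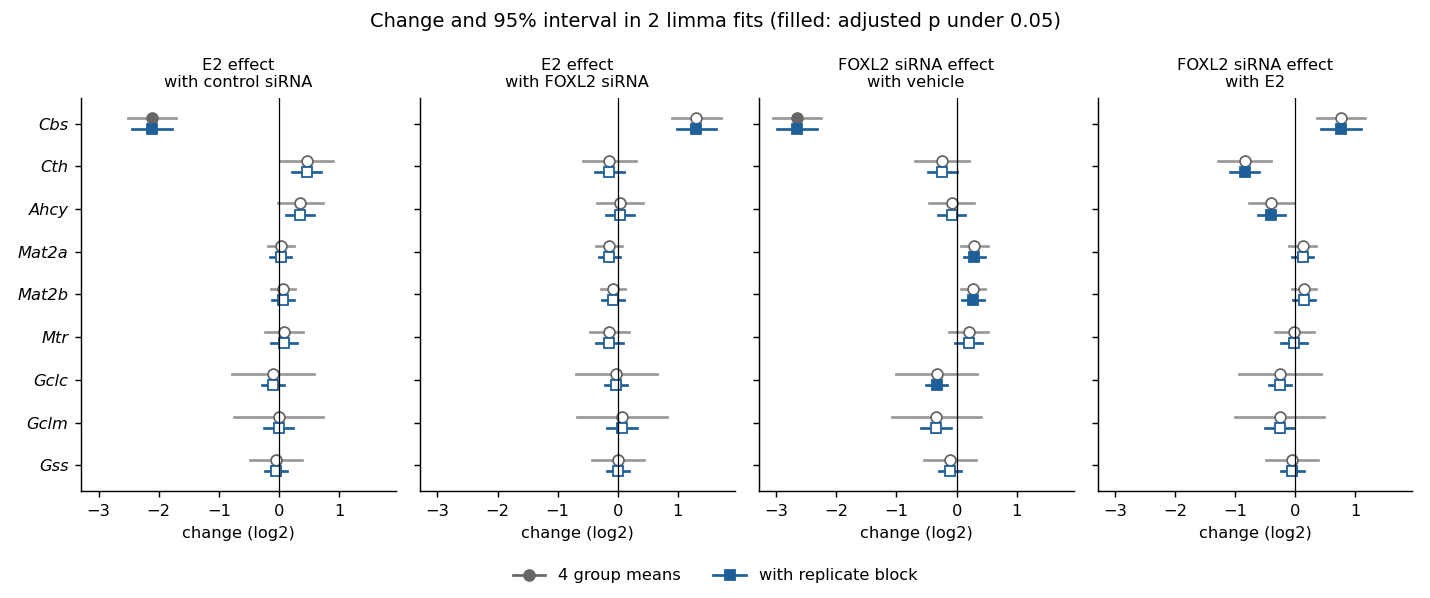
Log2 change (horizontal axis) of each of the 9 members (vertical axis) in the 4 comparisons, with 95% intervals from limma without and with the replicate block and a line at 0. Cbs lies far from 0 in the comparisons of control siRNA with E2 (-2.11) and of siRNA labels with vehicle (-2.65), and the intervals of Gclc and Gclm narrow most with the block.

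The wider pathway was read from 58 further genes in 4 lists, of which 51 were tested. In limma without the block, 0 were called for E2 with control siRNA, for E2 with FOXL2 siRNA or for the difference between the E2 effects, where 2, 1 and 3 had an unadjusted p under 0.05. With the block, 2 lower (3.92% of those tested), 0 and 2 higher (3.92%) genes were called in these comparisons, namely Cdo1 and Got1 each time. Of all genes, 1.16%, 0.614% and 2.12% were called there with the block, and 0.0192%, 0.0128% and 0.243% without it. Between siRNA labels, 0 were called higher and 3 lower with vehicle (5.88% of those tested, beside 6.56% of all genes), and 2 higher and 2 lower with E2 (7.84%, beside 4.39%). With the block these counts were 4 higher and 9 lower with vehicle (25.5%, beside 18.7% of all genes). With E2 they were 3 higher and 7 lower (19.6%, beside 14.9%). The counts by list below, without the block, stand beside the same 6.56% and 4.39% of all genes. The median changes of the 51 genes were -0.02 and -0.05.

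Of 12 tested genes for hydrogen sulfide, cysteine and taurine, 2 were called lower with vehicle and 1 higher with E2. Cdo1, the cysteine dioxygenase that opens the route to taurine, had log2 signals of 8.83 and 9.21 with control siRNA and vehicle and 5.55 and 6.67 with FOXL2 siRNA and vehicle. With E2 it was 7.82 and 8.49 under control siRNA and 6.35 and 6.70 under the FOXL2 label, so all arrays labelled FOXL2 siRNA were below all control arrays. It fell by 2.91 with vehicle (SE 0.38, limma adjusted p = 0.0055), a 7.51-fold lower signal, and was called in each repeat with an array left out. The log2 difference with E2 was -1.63 (limma adjusted p = 0.0565, or 4.8e-05 with the block). E2 with control siRNA went with a difference of -0.86, called only under the block (adjusted p = 0.0347), as was the difference of the E2 effects of 1.28 (adjusted p = 0.0167). Kyat3, a cysteine-conjugate beta-lyase, fell by 0.50 with vehicle (adjusted p = 0.0351), a call lost in 6 of 8 repeats with an array left out.

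Got1, the cytosolic aspartate aminotransferase, was called between siRNA labels with E2. Its log2 signal was 13.27 and 13.37 with control siRNA and vehicle, 12.81 and 12.90 under control siRNA plus E2, 13.16 and 12.88 with FOXL2 siRNA and vehicle, and 13.47 and 13.34 with FOXL2 siRNA and E2. The rise was 0.55 (limma adjusted p = 0.0359), a call lost in 6 of 8 repeats with an array left out. The difference of its E2 effects was 0.85 (adjusted p = 0.155, or 0.0072 with the block). The mitochondrial enzymes Got2, Tst and Ethe1, the further genes of this list with the highest levels, were not called without the block.

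In glutathione turnover, 1 of 12 tested genes was called. Ggct, the gamma-glutamylcyclotransferase, was 10.06 and 10.50 under control siRNA plus E2 and 11.02 and 11.56 with FOXL2 siRNA and E2, and rose by 1.01 (limma adjusted p = 0.0464). The difference with vehicle was 0.82 (adjusted p = 0.0753, or 5.4e-05 with the block). The call with E2 was lost in 7 of 8 repeats with an array left out. Oplah, the oxoprolinase that acts on the product of Ggct, was higher by 1.02 and 0.57, called only under the block.

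Of 21 tested genes of the methionine and folate cycle, 1 was called. Mtap, the methylthioadenosine phosphorylase of the methionine salvage route, was 9.21 and 9.64 under control siRNA plus E2 and 7.91 and 8.12 with FOXL2 siRNA and E2. It fell by 1.41 (limma adjusted p = 0.0168), and the call was lost when any 1 of these 4 arrays was left out. With vehicle the difference was -0.75 (adjusted p = 0.117, or 0.0042 with the block). Gamt, Enoph1 and Mthfd1, the further genes of this list with the highest levels, were not called.

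Among 6 tested transporters of cystine, methionine and other neutral amino acids, Slc3a2 was called in both siRNA comparisons. Slc3a2, the heavy chain shared by several amino acid exchangers, was 14.90 and 15.19 with control siRNA and vehicle and 14.27 and 14.26 with FOXL2 siRNA and vehicle. With E2 it was 15.03 and 15.22 and then 14.04 and 14.18, so the labels did not overlap. It fell by 0.78 with vehicle (limma adjusted p = 0.0093) and by 1.01 with E2 (adjusted p = 0.0051). The call with vehicle was lost without replicate 1 or without replicate 2 of FOXL2 siRNA with vehicle, and the call with E2 was kept in each repeat.

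**Figure D5:**
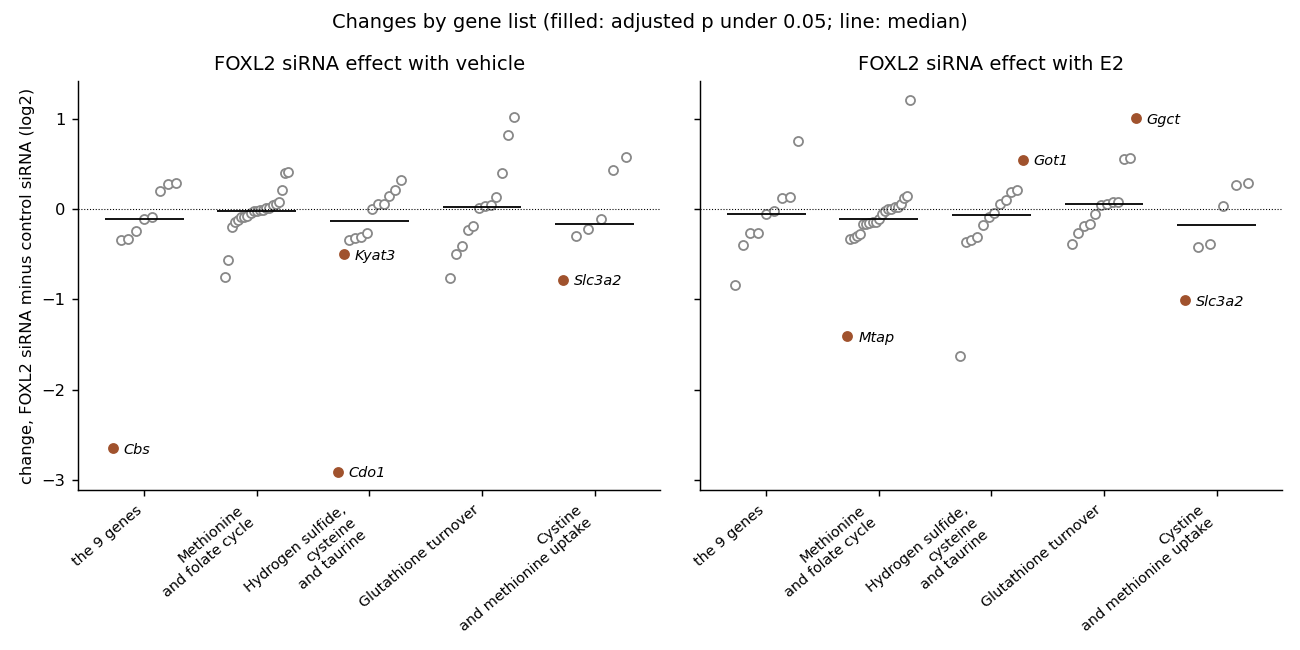
Log2 change, FOXL2 siRNA minus control siRNA (vertical axis), with vehicle (left) and with E2 (right), for the 9 members and the tested genes of the 4 wider lists (horizontal axis), with a point per gene, filled where called without the block, and a line at each list's median. The lowest points with vehicle are Cdo1 at -2.91 and Cbs at -2.65, and the list medians lie near 0 in both panels.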

How the data were processed

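Per the labels, RNA from 8 cultures was amplified from 50 ng, labelled with Cy3 and hybridised to one-colour Agilent arrays designed on mm9. The deposited scanner files hold spot intensity values, with the processed intensity background-subtracted by the authors' Feature Extraction software. The authors' table is on a log2 scale; apart from a constant per array, 98.7 to 98.9% of its values equalled the log2 values computed here within 0.001. It was used as an alternative and for the Entrez IDs.

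Of 62976 spots, 3671 control spots were dropped, as were 42 non-uniform probes. The remaining 55639 probes were divided by the array's 75th percentile (275 to 367 units) and averaged per gene on the linear scale. A gene was kept where its scaled signal had a median of 10 or more. Between 51.3 and 55.6% of probes were above background, 0 were saturated, and replicates correlated at 0.989 to 0.992. RefSeq named 22349 genes. With 2 arrays per group, their number limits precision.

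Group means over 8 arrays were fitted with limma 3.58.1 in R 4.3.3 (intensity trend, 4 residual degrees of freedom, two-sided, Benjamini-Hochberg). The script was tested on simulated data. Tables and figures used matplotlib 3.10.9, pandas 2.3.3 and numpy 2.4.6 in Python 3.11.15. The sample titles give shared replicate numbers, and while each replicate was a pool of mice, no source says that the same number in different groups marks the same pool; deviations of same-numbered arrays correlated at 0.327 to 0.445 in all 6 pairs of groups, so the number was used as a block in a second fit. The slide and scan were common to all arrays. The files used hold no mean raw signal, so normexp was run on the median raw intensity. Named genes were the 9 members, wider-list genes that were called or had the 3 highest further levels of their list, Foxl2, and the 5 genes most like Cbs. An exchange of the vehicle and E2 labels within control siRNA was added after seeing the data. Members, lists and tests were chosen with earlier results of these data known.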

Additional observations from a re-analysis of the deposited data

Results flagged for a closer look

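The E2 effect on Cbs differed between the siRNA labels by 3.41 on the log2 scale (SE 0.24, limma adjusted p = 0.00368, n = 2 arrays per group). E2 went with a change of -2.11 with control siRNA and of 1.31 in the arrays labelled FOXL2 siRNA, in the same direction in 2 of 2 replicate numbers in each case. It is listed because the difference of the effects passed its own test. The value rests on the vehicle and E2 labels of the control siRNA arrays, where the direction for Cbs is opposite to the one the study describes. With these labels exchanged, the E2 effects on Cbs were 2.11 and 1.31 and their difference was -0.80 (95% interval -1.36 to -0.23, limma adjusted p = 1.00). Whether the labels are the right way round was not tested.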

How the results depend on the processing

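The counts of members called were repeated under other processing. The count for E2 with control siRNA went from 1 to 0 without the filter on dim genes, without the intensity trend and with only the groups compared, and was 0 to 1 with an array left out. That for E2 with FOXL2 siRNA went from 0 to 1 with the replicate block, without scaling and by the study's own rule. That for the siRNA labels with vehicle went from 1 to 4 with the replicate block and was 1 with any array left out. That with E2 went from 0 to 3 with the replicate block and to 2 with normexp (Cth and Cbs), and was 0 to 1 with an array left out. The count for the difference of the E2 effects was 1 in each of these alternatives. The cause was not tested. With the vehicle and E2 labels of the control siRNA arrays exchanged, an alternative chosen after seeing the data and run for Cbs and these counts, the counts were 1, 0, 0, 1 and 0. Cbs then changed by 2.11 for E2 with control siRNA, -1.34 between siRNA labels with E2 and -0.80 for the difference of the E2 effects, all with the sign turned.

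Over all genes, the replicate block called 182, 96, 2928, 2329 and 332 genes in the 5 comparisons, against 3, 2, 1026, 686 and 38. The study's own rule selected 71 genes (9 higher) for E2 with control siRNA, 34 (25 higher) with FOXL2 siRNA, and 460 and 368 between siRNA labels. Without scaling the counts were 4, 13, 607, 426 and 33, without the trend 1, 1, 633, 379 and 15, without the filter 1, 0, 736, 460 and 9, and with only the groups compared 3, 0, 585 and 473. Normexp called 7 for E2 with control siRNA, and the brightest probe 1 for E2 with FOXL2 siRNA. With an array left out the counts ranged from 0 to 5, 0 to 4, 309 to 918, 130 to 629 and 4 to 10. Between siRNA labels with vehicle, 567 genes were higher and 459 lower, and 222 and 385 without scaling.

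In the other alternatives, signs that turned belonged to values that were not called. Without scaling, the median of all genes moved to 0.15, 0.22, -0.14 and -0.05 in the 4 comparisons. E2 with FOXL2 siRNA then gave 0.11 for Cth, 0.11 for Mat2a, 0.18 for Mat2b, 0.11 for Mtr and 0.22 for Gclc, and E2 with control siRNA 0.067 for Gclc, 0.16 for Gclm and 0.11 for Gss. The brightest probe of Ahcy gave -0.14 for E2 with FOXL2 siRNA and 0.019 between siRNA labels with vehicle. Quantile normalization gave 0.0045 for Gclc. For Gclm, normexp gave 0.043 and the values of the authors 0.0068. None of these values for Gclc and Gclm was a difference between siRNA labels with vehicle. Normexp gave 0.0031 for Gss.

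With an array left out, E2 with FOXL2 siRNA ranged from -0.32 to 0.041 for Cth, -0.13 to 0.21 for Ahcy, -0.16 to 0.013 for Mat2b, -0.28 to 0.0019 for Mtr, -0.30 to 0.25 for Gclc, -0.25 to 0.40 for Gclm and -0.20 to 0.21 for Gss. E2 with control siRNA ranged from -0.048 to 0.11 for Mat2a, -0.043 to 0.21 for Mtr, -0.41 to 0.22 for Gclc, -0.35 to 0.34 for Gclm and -0.22 to 0.12 for Gss. The siRNA labels with vehicle ranged from -0.25 to 0.084 for Ahcy, -0.68 to 0.0045 for Gclm and -0.27 to 0.064 for Gss, and with E2 from -0.16 to 0.12 for Mtr, -0.53 to 0.015 for Gclc, -0.58 to 0.050 for Gclm and -0.26 to 0.16 for Gss. The difference of the E2 effects ranged from -0.24 to 0.39 for Gclc, -0.27 to 0.42 for Gclm and -0.15 to 0.26 for Gss.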
